A study of Drosophila sechellia and Drosophila melanogaster and Drosophila simulans with 18 samples.

Results

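The maltase genes of *Drosophila* are a family of 10, named Mal-A1 to Mal-A8, Mal-B1 and Mal-B2, and were taken by these symbols from the gene table of each species. The table of *D. melanogaster* lists 10 of the 10 among 17649 genes, that of *D. simulans* lists 5 among 15372 (Mal-A1, Mal-A6, Mal-A8, Mal-B1 and Mal-B2), and that of *D. sechellia* lists 7 among 17273 (Mal-A1 to Mal-A5, Mal-A7 and Mal-B2). All listed entries passed the minimum mean of 1 FPKM used below.

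Maltases are alpha-glucosidases, enzymes that release glucose from maltose and other short sugars. Starch is first cut by amylase in the gut lumen, and maltases then finish its digestion at the gut wall. In *D. melanogaster* Mal-A1, Mal-A2 and Mal-A3 were first described as larval visceral proteins made in the midgut, and maltase expression there is known to depend on dietary sugar.

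RNA-seq was made from whole adult females of *D. melanogaster* (strain 14021-0231.36), *D. simulans* (strain 14021-0251.195) and *D. sechellia* (strain 14021-0428.25), 1 strain for each species, reared on cornmeal medium at 20°C. Flies were pooled for each library after 24 h on instant food (control) or on the same food with 0.23% hexanoic acid (HA), a volatile fatty acid of the fruit on which *D. sechellia* feeds. Each of the 6 groups had 3 libraries, 18 in all. The study asked which genes respond to HA in the specialist *D. sechellia* and in the generalists *D. melanogaster* and *D. simulans*. The authors' Cuffdiff value for each gene and diet, in FPKM, pools the 3 libraries of a group, so there is 1 value for each diet, no spread between libraries and no test, and every difference below is a comparison of pooled values. Normalization was separate for every species, and reads were longer in *D. sechellia*, so FPKM levels were compared between genes and diets within a species only.

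In *D. melanogaster* the family lies in 2 clusters. According to the BDGP6 annotation, Mal-A1 to Mal-A8 lie in numerical order on chromosome arm 2R, from 8449664 to 8473961, a stretch of 24.3 kb. The gaps between neighboring members are 65 to 1868 bp, and the annotated genes other than maltases that reach into the stretch are the cytochrome P450 gene Cyp4e1, which overlaps the end of Mal-A1 by 82 bp, and mtt, which overlaps Mal-A8 by 6 bp, each on the opposite strand. Mal-B1 (11847226 to 11849169) and Mal-B2 (11849958 to 11852881) are neighbors on arm 2L and lie 788 bp apart. This pair sits on the opposite strand in an intron of the phosphodiesterase gene Pde1c, and no Pde1c exon overlaps either gene. The encoded proteins are alike in length, between 534 residues for the shortest Mal-A5 isoform and 630 for its longest, with 564 to 601 for every isoform of the other members.

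On control food, maltase levels in *D. melanogaster* differed by 12.3-fold between the highest and the lowest member. Mal-A1 was highest, at 99.3 FPKM, followed by Mal-A5 at 81.6 FPKM, Mal-A6 at 59.4 FPKM and Mal-B2 at 46.1 FPKM. The other 6 lay between 8.05 FPKM (Mal-A8) and 18.3 FPKM (Mal-A4). Mal-A1 held a 27.5% share of the summed maltase FPKM and Mal-A5 a 22.6% share. Both clusters thus hold members of high and of low level, and neighbors in this order cannot be told apart where they are close, such as Mal-A3 at 12.4 and Mal-A7 at 11.7 FPKM, because the spread between libraries is unknown.

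After 24 h on HA food, 9 of the 10 maltase genes of *D. melanogaster* had a lower FPKM than on control food, where 49.6% of the 10316 genes past the minimum were lower. Their summed level was 361 FPKM on control food against 280 FPKM with HA. The median log2 ratio of HA over control was -0.38 for the maltases and 0.003 for all genes. The decrease was at least 1.5-fold for 2 of the 10, Mal-A6 and Mal-A8, against 5.89% of all genes, and no maltase was at least 1.5-fold higher, against 1.46% of all genes.

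The lowest ratios belonged to Mal-A6 and Mal-A8, near the far end of the Mal-A cluster, with Mal-A7 between them. Mal-A8, the member of lowest level, had 8.05 FPKM without HA and 4.21 FPKM with it, 1.91-fold lower (log2 ratio -0.93), and 1.60% of genes had a lower ratio. Its locus in the table is joined with that of mtt, which was at 0.472 and 0.336 FPKM. Mal-A6 was abundant on control food and had a similar ratio, with 59.4 FPKM on control food against 32.2 FPKM with HA (1.84-fold lower, log2 ratio -0.88), below which 1.90% of genes lay. The decrease therefore reached both a member of high and a member of low level.

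Mal-A1 came next, just short of 1.5-fold. It had 99.3 FPKM without HA and 67.3 FPKM with it (1.47-fold lower, log2 ratio -0.56; 6.54% of genes were lower), and it was no longer the most abundant maltase on HA food. Its locus in the table is joined with that of Cyp4e1, which had 6.36 and 5.64 FPKM. As use of strand in counting is not stated, reads from the short overlap of these genes cannot be told apart.

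Mal-A2 had 11.0 FPKM on control food against 7.83 FPKM with HA (log2 ratio -0.49), Mal-A7 had 11.7 and 8.86 FPKM (log2 ratio -0.40), and Mal-A4 had 18.3 and 14.2 FPKM (log2 ratio -0.37). Mal-A3, which lies between Mal-A2 and Mal-A4, differed less between the diets, at 12.4 and 10.9 FPKM (log2 ratio -0.19). These 4 members were 1.14- to 1.40-fold lower with HA, and 8.75% to 27.1% of genes had lower ratios than they did.

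Mal-A5 was the exception. It had 81.6 FPKM without HA and 85.3 FPKM with it (log2 ratio 0.06), and 59.8% of genes had a lower ratio. Mal-A5 lies 65 bp from Mal-A6 on the same strand, yet these neighbors had the highest and the next to lowest log2 ratio of the family. On HA food Mal-A5 became the most abundant maltase, with a 30.4% share of the summed FPKM, while Mal-A6 went from a share of 16.5% to one of 11.5%.

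In the Mal-B pair, Mal-B1 had 13.2 FPKM on control food against 10.4 FPKM with HA (log2 ratio -0.34), and Mal-B2 had 46.1 and 39.0 FPKM (log2 ratio -0.24). Both were lower on HA food by less than 1.5-fold. The table gives them a joint locus with 16 other genes, since Pde1c spans them all, but Pde1c itself was at 4.88 and 4.67 FPKM. Of 11 other listed genes within 10 kb of the pair, 7 passed the minimum, all 7 were lower on HA food, against 49.6% of all genes, and 2 by at least 1.5-fold, against 5.89%. Those are CG44008, with 344 FPKM without HA and 192 FPKM with it (log2 ratio -0.85), and CG14933, with 123 and 70.4 FPKM (log2 ratio -0.81). The 7 are not separate loci: CG42486 overlaps CG14933 on the same strand, and Pde1c, itself among the 7, spans the others. Whether they share reads was not tested.

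**Figure D1:**
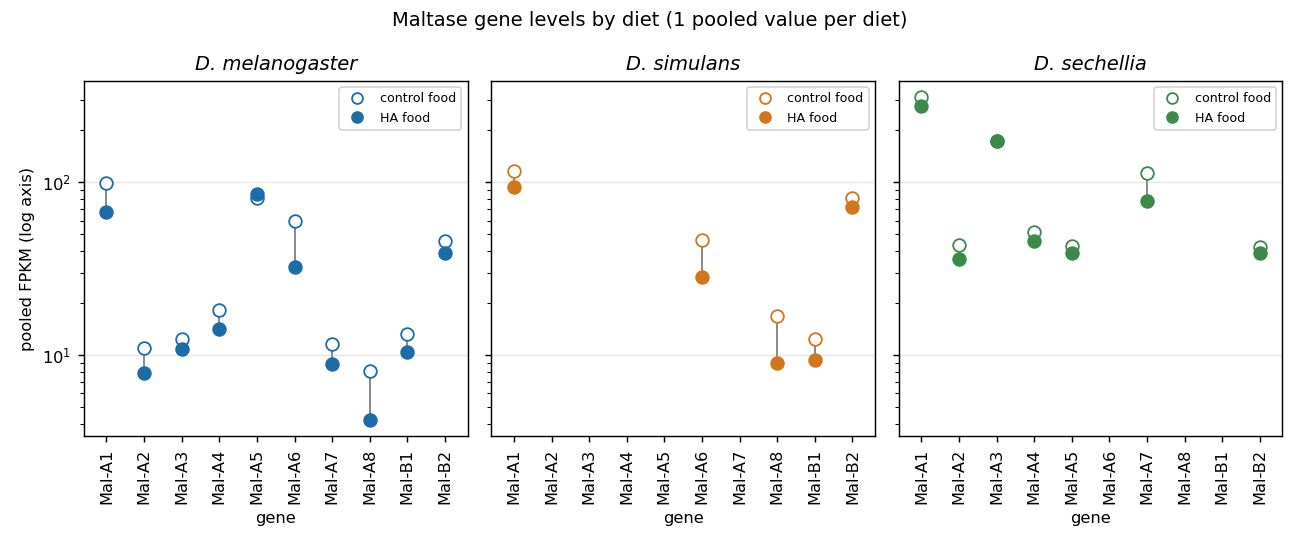
Pooled FPKM (log axis) of each maltase gene that a species table lists by symbol, on control food (open circles) and HA food (filled circles), joined by a line; each circle is 1 value pooled over 3 libraries, so there are no error bars. Every pair is lower on HA food except Mal-A5 of *D. melanogaster* (81.6 and 85.3 FPKM).

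In *D. simulans* the 5 listed maltase genes were all lower on HA food. Lower values were common in this table, where 68.8% of 9340 genes were lower and the median log2 ratio of all genes was -0.13. With both diets rescaled to the same summed FPKM, 80.4% of genes were lower, and relative to the median gene 50% were, by construction. The 5 maltases were lower under either scaling. Rescaling to the same sum moved every ratio down here, so only the scaling to the median gene could have changed this. The median of the 5 maltases was -0.40, and their summed level was 272 FPKM on control food against 213 FPKM with HA. At least 1.5-fold lower were 2 of the 5, against 7.61% of all genes, and these were again Mal-A6 and Mal-A8.

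Mal-A8 had 16.8 FPKM without HA and 8.98 FPKM with it (1.87-fold lower, log2 ratio -0.90), and 1.82% of genes had a lower ratio. The table joins its locus with 2 other genes. Mal-A6 had 46.3 FPKM on control food against 28.5 FPKM with HA (1.63-fold lower, log2 ratio -0.70; 4.46% of genes were lower). Relative to the median of all genes the log2 ratio of Mal-A6 was -0.57, short of 1.5-fold, and that of Mal-A8 was -0.78, which still passed it.

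Mal-A1 was the most abundant of the 5 on both diets, with 116 FPKM without HA and 94.4 FPKM with it (log2 ratio -0.29). Its locus is joined with that of a gene listed by number only, which was at 7.23 and 5.71 FPKM. Mal-B1 had 12.3 and 9.32 FPKM (log2 ratio -0.40). Mal-B2, the second most abundant, had 80.8 and 71.8 FPKM (log2 ratio -0.17), and relative to the median of all genes its log2 ratio was -0.04. Mal-B1 and Mal-B2 lie in a joint locus of 11 genes.

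In *D. sechellia* the 7 listed maltase genes were also all lower on HA food, against 44.8% of 11949 genes, but by small amounts. With both diets rescaled to the same summed FPKM, 61.6% of genes were lower. As the summed FPKM of all genes was higher with HA, this moved every ratio down, so all 7 maltases had to stay lower. Their median log2 ratio was -0.16 where that of all genes was 0.02, and their summed level was 779 FPKM on control food against 689 FPKM with HA. Of the 7, 0 were 1.5-fold lower, against 4.43% of all genes (after that rescaling 1, Mal-A7, against 5.27%). Mal-A6 and Mal-A8, the members with the lowest ratios in the other species, are not listed by symbol here.

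The largest difference in *D. sechellia* was that of Mal-A7, with 113 FPKM without HA and 78.3 FPKM with it (1.45-fold lower, log2 ratio -0.53), and 5.0% of genes had a lower ratio. Mal-A2 had 43.4 and 36.1 FPKM (log2 ratio -0.27). The other 5 members were at most 1.12-fold lower. Mal-A1, again the most abundant member, had 311 FPKM on control food against 278 FPKM with HA (log2 ratio -0.16).

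Mal-A4 of *D. sechellia* had 51.3 and 45.8 FPKM (log2 ratio -0.16), Mal-A5 had 42.7 and 39.1 FPKM (log2 ratio -0.13), and Mal-B2 had 42.1 and 39.2 FPKM (log2 ratio -0.10). Mal-A3 was level between the diets, at 175 and 173 FPKM (log2 ratio -0.02).

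**Figure D2:**
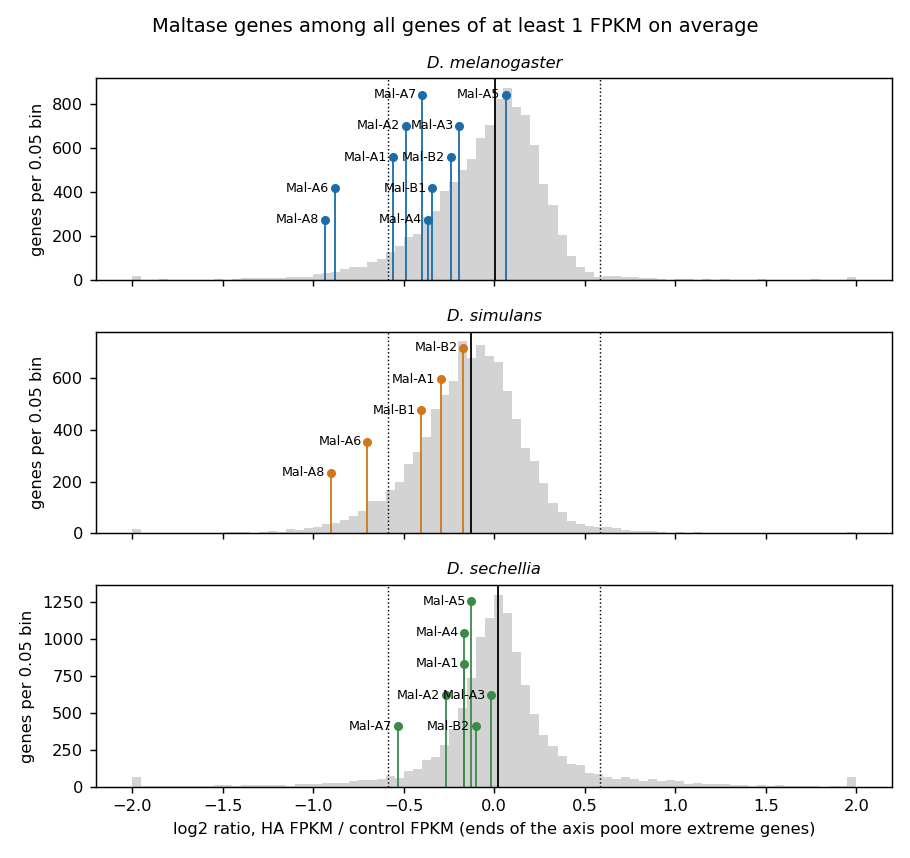
Number of genes (grey bars, per 0.05 of log2 ratio) with a mean of at least 1 FPKM, by log2 ratio of HA over control FPKM; colored stems mark the maltase genes at their ratio, and stem height has no meaning. The black line is the median of all genes (0.003, -0.13 and 0.02 from top to bottom) and dotted lines mark 1.5-fold; Mal-A6 and Mal-A8 lie past the lower one in *D. melanogaster* and *D. simulans*.

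Members listed in 2 species were set side by side. Between *D. melanogaster* and *D. simulans* the order of the 5 shared log2 ratios was nearly the same (Spearman's rho 0.90 over 5 genes), with Mal-A8 lowest, Mal-A6 next and Mal-B2 highest in each. Mal-A8 had log2 ratios of -0.93 and -0.90, and relative to the median gene of each species of -0.94 and -0.78, so their closeness depended on the scaling. The largest gap was that of Mal-A1, -0.56 and -0.29, or -0.56 and -0.17 relative to the median gene.

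Over the 7 members shared by *D. melanogaster* and *D. sechellia*, the ratios had a rho of 0.75. The log2 ratio was nearer to 0 in *D. sechellia* for Mal-A1, Mal-A2, Mal-A3, Mal-A4 and Mal-B2, with a gap of 0.40 for Mal-A1 (-0.56 against -0.16) and 0.14 for Mal-B2. By the share of genes with a lower ratio, *D. melanogaster* first, some of these were close. The shares were 8.75% and 11.9% for Mal-A2, 14.2% and 19.2% for Mal-A4, and 22.9% and 26.5% for Mal-B2. They were further apart for Mal-A1 (6.54% and 19.2%) and Mal-A3 (27.1% and 41.6%). Mal-A7 went further down in *D. sechellia* (-0.53 against -0.40), and Mal-A5 was lower there and slightly higher in *D. melanogaster*. The sizes of these gaps depended on the scaling. Over the 7 shared members the median gap was 0.18. The median over all listed members was -0.38 in *D. melanogaster* and -0.16 in *D. sechellia*. These sets are unlike, since Mal-A6, Mal-A8 and Mal-B1 are listed in *D. melanogaster* only. With the diets rescaled to the same summed FPKM, these medians were closer, at -0.33 and -0.24. Whether the species differ in any of these genes was not tested, since no value per library is given, and these few genes share their libraries and read lengths within a species.

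Genes listed by number only also lie between the named maltases of *D. simulans* and *D. sechellia*, and are described by position. In *D. simulans*, 4 genes listed by number only lie between Mal-A1 and Mal-A6, and 1 lies between Mal-A6 and Mal-A8, as many as the *D. melanogaster* cluster has in these places; no orthology was assigned to them. The numbered gene next to Mal-A6, in the place that Mal-A5 has in *D. melanogaster*, was the only 1 of the 5 with a higher value on HA food, 74.5 FPKM without HA and 97.1 FPKM with it (log2 ratio 0.38). The numbered gene between Mal-A6 and Mal-A8 had the lowest ratio of the stretch, with 16.2 and 7.51 FPKM (log2 ratio -1.11), and the other 3 had log2 ratios between -0.19 and -0.56.

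In *D. sechellia*, 2 short numbered genes lie between Mal-A5 and Mal-A7, the place of Mal-A6 in *D. melanogaster*. They had 5.17 and 3.53 FPKM (log2 ratio -0.55) and 13.7 and 11.0 FPKM (log2 ratio -0.32), low levels beside their neighbors. In *D. melanogaster* and *D. simulans* the lowest ratios of the stretch thus lie at its Mal-A6 to Mal-A8 end. Mal-A7 of *D. melanogaster* (-0.40) was an exception there, above Mal-A1 (-0.56) and Mal-A2 (-0.49). Next to Mal-A6 lies the single gene that was higher, if genes in a joint locus with a member are left out. A gene of the joint Mal-A8 locus of *D. simulans* was also higher, but at only 0.188 and 0.219 FPKM.

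**Figure D3:**
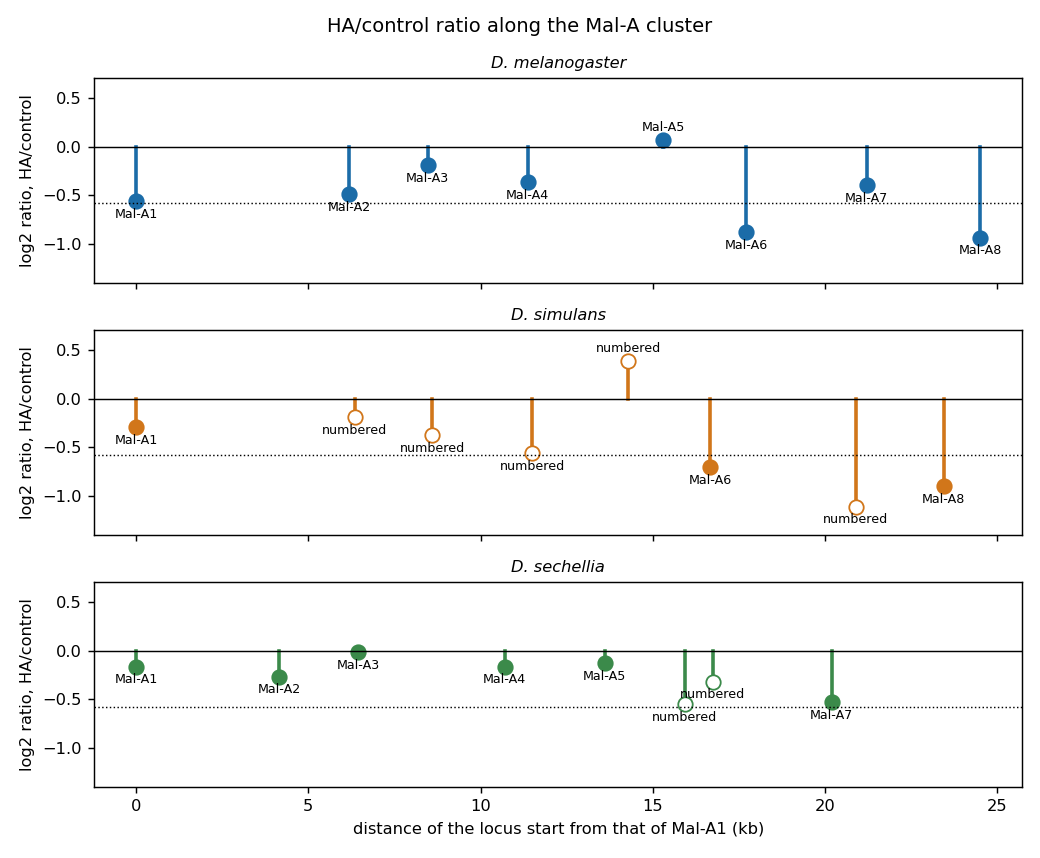
Log2 ratio of HA over control FPKM along the Mal-A cluster of each species, by the distance (kb) of each locus start in the table from that of Mal-A1; filled circles are maltase genes listed by symbol, open circles are genes listed by number only, and genes that share a joint locus with a member are left out. The dotted line marks 1.5-fold lower; the gene before Mal-A6 is the only one above 0 in *D. melanogaster* (0.06) and in *D. simulans* (0.38).

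Other enzymes of carbohydrate digestion were described species by species, since the tables list different ones. In *D. melanogaster* the 4 that passed the minimum (Amy-p, Amy-d, tobi and Treh) were all lower on HA food, against 49.6% of all genes (median log2 ratio -0.49). The alpha-glucosidase gene tobi, a target of insulin-like signaling, had 27.6 FPKM on control food against 11.9 FPKM with HA (log2 ratio -1.22), lower than any maltase. The amylase genes Amy-d, with 178 and 122 FPKM (log2 ratio -0.54), and Amy-p, with 407 and 302 FPKM (log2 ratio -0.43), were within the range of the maltases. Amy-p and Treh are named here with their values already seen. With the diets rescaled to the same summed FPKM, 3 of the 4 were lower, against 42.5% of all genes, as the trehalase gene Treh passed from a log2 ratio of -0.04 to 0.02.

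In *D. simulans* and *D. sechellia*, whose tables list only Amy-p, Amy-d and Amyrel of these enzymes, the 3 were higher on HA food, and whether this differs from *D. melanogaster* was not tested. Amy-d had 279 and 304 FPKM in *D. simulans* (log2 ratio 0.13) and 33.8 and 39.0 FPKM in *D. sechellia* (log2 ratio 0.21), and the amylase-related gene Amyrel had 2.23 and 3.16 FPKM (log2 ratio 0.50) and 22.6 and 27.8 FPKM (log2 ratio 0.30). Amy-p was higher by 0.09 and 0.25 on the log2 scale. Of these 6 values 0 reached 1.5-fold. After rescaling to the same summed FPKM all 6 were above 0, Amy-p and Amy-d of *D. simulans* barely so (0.003 and 0.04). Near-identical Amy-p and Amy-d copies could share reads, so the split between them is uncertain.

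Listed genes of glycolysis and sugar transport moved less in *D. melanogaster*. Of 12 listed genes of glycolysis, 10 were lower on HA food, against 49.6% of all genes, and 0 by 1.5-fold, against 5.89%, with a median log2 ratio of -0.12. After the same rescaling 8 of the 12 were lower, against 42.5% of all genes. The furthest were the aldolase gene Ald (log2 ratio -0.39) and the phosphoglycerate kinase gene Pgk (log2 ratio -0.28). Of 5 sugar transporter genes, 3 were lower, near the 49.6% of all genes, and 2 were higher (median -0.07). They lay between sut2 at -0.40 and sut1 at 0.26. Of 4 regulators of the sugar response, 2 were lower, against 49.6% of all genes. These were daw, a secreted TGF-beta ligand (log2 ratio -0.32), and bigmax, a partner of the sugar sensor Mondo (log2 ratio -0.25). The other 2 were slightly higher. CD98hc, an amino acid transporter subunit related to maltases in sequence, had 91.2 FPKM without HA and 103 FPKM with it (log2 ratio 0.18).

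Markers of the midgut, the main site of maltase expression, were lower as well. All 13 listed in *D. melanogaster* were expressed and lower on HA food, against 49.6% of all genes, with log2 ratios from -0.81 to -0.03 and a median of -0.23, and a summed level of 9345 FPKM on control food against 7826 FPKM with HA. After rescaling to the same summed FPKM, 12 of the 13 were lower, against 42.5% of all genes. The protease gene Jon25Bi (377 and 215 FPKM, log2 ratio -0.81) and the midgut gene mex1 (33.2 and 19.1 FPKM, log2 ratio -0.80) were furthest, the only 2 of the 13 past 1.5-fold, against 5.89% of all genes. The 7 markers of ovary and yolk were all higher, where 5199 of all 10316 genes were, by a median of 0.18 on the log2 scale. Relative to the median gene 6 of the 7 were higher. They were led by vas (log2 ratio 0.30) and osk (log2 ratio 0.27). Of 4 fat body markers 3 were lower, against 49.6% of all genes (median log2 ratio -0.16). After rescaling 2 of the 4 were lower, against 42.5%. The furthest were Fbp1 (log2 ratio 1.15) and Lsp2 (log2 ratio -0.73). Of 3 muscle markers 1 was lower, against 49.6% of all genes, and 2 were higher (median log2 ratio 0.05). The furthest were TpnC4 (log2 ratio -0.67) and Mhc (log2 ratio 0.26). In RNA of whole females, fewer midgut cells and less maltase RNA per cell cannot be told apart, and the part of the midgut markers in the maltase values was not tested. None of the 13 midgut markers is listed by symbol in *D. simulans* or *D. sechellia*.

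**Figure D4:**
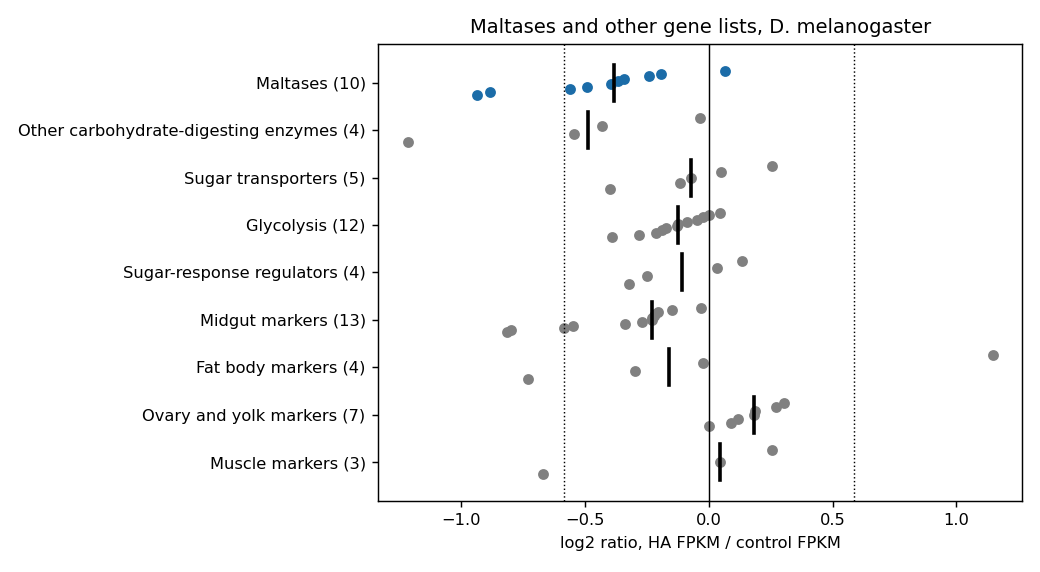
Log2 ratio of HA over control FPKM in *D. melanogaster* for the 10 maltases (blue) and the genes of other lists (grey); each point is 1 gene, the number of genes past the minimum stands in brackets, black bars are medians and dotted lines mark 1.5-fold. The maltases (median -0.38) lie between the other carbohydrate-digesting enzymes (-0.49) and the midgut markers (-0.23), and ovary and yolk markers lie at or above 0.

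Genes of like ratio across species could be sought only among the 84 other genes that all 3 tables name and that passed the minimum. The mean of Mal-A1 and Mal-B2, the maltases that all 3 list, lay at -0.13 for *D. sechellia*, -0.23 for *D. simulans* and -0.40 for *D. melanogaster*. By Euclidean distance over these 3 log2 ratios, the nearest were the germline gene nos (distance 0.18), the juvenile hormone epoxide hydrolase gene Jheh1 (0.20), the odorant-binding protein genes Obp56d (0.21) and Obp44a (0.25) and the sex-determination gene Sxl (0.30), where the median gene lay at 0.63.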

How the data were processed

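RNA from whole adult females of each species and diet was sequenced by the authors, with 3 libraries a group. According to the methods and the labels, reads were checked with FastQC and mapped with Bowtie2 to BDGP6, ASM75419v3 or dsec_caf1, and Cuffdiff was run once per species with geometric library normalization and bias correction; versions are not given in the sources used here. The deposited FPKM value of a gene and diet (a fragment count scaled by transcript length and library size) was pooled by Cuffdiff over the 3 libraries, so it has no SD. The same tables hold the authors' fold changes, test statistics, p-values and q-values, which were not used. Depth per library is not in the tables. Bowtie2 does not split reads over introns, and whether strand was used in counting is not stated.

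From these values the log2 ratio of HA over control FPKM was computed, with no pseudocount, for genes above 0 FPKM on both diets and with a mean of at least 1 FPKM. A ratio of 1.5-fold or more was counted, and nothing was tested. Members were matched by symbol after the species prefix was removed, and positions were read from the Ensembl BDGP6 annotation. Counting steps were tested on simulated data. All members are named, as are the pair of genes with the largest absolute log2 ratio in each further list and the 5 genes nearest in ratio across the 3 species. Of the genes between or near members only some are named, and those listed by number only are described by position. The members, lists and thresholds were chosen with earlier results of these data known. Python 3.11.15, pandas 2.3.3, NumPy 2.4.6, SciPy 1.17.1 and matplotlib 3.10.9 were used.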

Additional observations from a re-analysis of the deposited data

How the results depend on the processing

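Of 60 recomputed values, 53 stayed within 1.5 times (counts) or 0.1 on the log2 scale (medians), and 0 reversed. The counts of lower maltase genes (9, 5 and 7 in the order *D. melanogaster*, *D. simulans*, *D. sechellia*) were the same under every alternative run for them. A pseudocount cannot change the direction of a ratio, and every listed member passed the minimum mean of 5 FPKM. With no minimum or that of 5 FPKM, the maltase values were therefore the same by construction. Only centring and rescaling could have changed the counts of lower genes, and in *D. sechellia* both moved every ratio down. With a pseudocount of 0.1 or 1 FPKM, no minimum, or a minimum mean of 5 FPKM, the counts at least 1.5-fold lower were 2, 2 and 0, as reported. The fold that is counted mattered. From a log2 ratio of -0.32 downward there were 7 genes for *D. melanogaster* (16.8% of all genes), 3 for *D. simulans* (24.1%) and 1 for *D. sechellia* (9.62%). At 2-fold there were 0 for *D. melanogaster* (1.27% of all genes), 0 for *D. simulans* (1.2%) and 0 for *D. sechellia* (1.91%). After centring on the median of all genes, 1 gene of *D. simulans* passed 1.5-fold, Mal-A8 (4.27% of all genes did), and the median log2 ratio of its 5 maltases was -0.28. With the diets rescaled to the same summed FPKM, an alternative added after seeing the data, 1 gene of *D. sechellia* passed 1.5-fold (5.27% of all genes did). No paired analysis was possible because the tables hold 1 pooled value per diet, and for that reason no library was left out; the tables used here give neither depth nor the spread between libraries.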

Other observations

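The joint locus of Mal-A8 in *D. simulans* also holds a gene listed by number only that was more abundant than Mal-A8 itself, with 56.2 FPKM without HA and 31.9 FPKM with it (log2 ratio -0.82), close to the log2 ratio of Mal-A8 (-0.90). Whether reads were divided between them was not tested. Across the family, control level and log2 ratio did not go together in a single way: Spearman's rho was 0.25 over the 10 genes of *D. melanogaster*, 0.60 over the 5 of *D. simulans* and -0.21 over the 7 of *D. sechellia*. Along the Mal-A cluster of *D. melanogaster*, the 5 genes on the plus strand had a median log2 ratio of -0.49 and the 3 on the minus strand of -0.40.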
